A study of Cladosporium europaeum with 50 samples.

Results

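Membrane transporters of the filamentous fungus Cladosporium europaeum, strain F32, are described here in mycelium grown with or without a polychlorinated biphenyl (PCB). The members are all genes whose annotation in the authors' deposited table names a major facilitator, transporter, permease, antiporter, symporter, efflux protein or carrier protein, the abbreviation MFS included. They number 36 of the 705 annotated and 920 listed genes, and they hold 44 of the 1102 listed combinations of gene and comparison. Of the 36, 26 belong to the major facilitator superfamily and 10 to other families. The exposed cultures received 6 mg/L of PCB180 (a heptachlorobiphenyl), PCB153 (a hexachlorobiphenyl), PCB101 (a pentachlorobiphenyl) or PCB52 (a tetrachlorobiphenyl), and the control cultures 0 mg/L, all in mineral medium with 5 g/L glucose. The strain came from a soil with a history of PCB pollution, so every group carries the background of that isolate. Each of the 10 groups, at 24 h or 96 h, had 5 replicates of mycelial RNA, and the labels do not say whether these were separate cultures.

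Major facilitators are single-chain transporters that use ion gradients or the gradient of the solute to move sugars, organic acids, amines, drugs and other small molecules, inward or outward. ABC transporters couple ATP hydrolysis to the movement of a substrate and are often exporters. In filamentous fungi, members of both groups take up nutrients and export toxic compounds and secondary metabolites. Sequence alone rarely fixes the substrate or the direction of a major facilitator. Of the 26 major facilitators, 21 carried the profile domain name and 3 the name MFS general substrate transporter, and a further annotation named a substrate for 2, quinate and a polyamine.

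The data are the authors' tests of a congener against its control at that hour, beside 1 row of PCB180 against PCB153. They hold the genes whose adjusted p was under 0.05 and whose log2 fold change against control was 1 or more in either direction, so "rose" and "fell" mean listed in this way. Values per sample were not used here, so the spread between replicates enters through the standard error (SE) of each fold change, and depth per sample is unknown. A transporter gene without a row may have missed either limit, and the number of transporter genes tested in all is not known. The mean normalized count, a level over the study and not of a group, was between 37.7 and 3699 for the members (median 272) and between 10.2 and 119992 for all listed genes (median 302), in the authors' deposited table. This count grows with transcript length as well as with abundance, so it is given as the depth behind an estimate and not as a ranking of genes.

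After 24 h, transporters entered the list through a single gene. The major facilitator ptg000021l.30 rose 118-fold under PCB52, at a log2 fold change of 6.88 ± 0.97 (SE; 95% interval 4.98 to 8.78) with adjusted p = 1.5e-08, in the authors' deposited table. It was the only gene listed for PCB52 at that hour, which is 0.00884% of the 11313 genes tested. This is the largest log2 fold change among the 44 member values, and its standard error is also the largest. Its mean normalized count was 115. Without values per sample, it is unknown how many of the 5 replicates carried the rise. The gene had no row for PCB52 at 96 h or for another congener at either hour. At 24 h none of the 2 genes listed for PCB180 (0.0177% of those tested) and the 6 listed for PCB153 (0.053%) was a transporter. No row was present for PCB101 at that hour, which does not tell an empty comparison from one not made.

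At 96 h, 28 transporter genes were listed for PCB180, 14 for PCB153, 1 for PCB101 and 0 for PCB52. The authors' lists held 7.26% of the 11313 genes tested for PCB180, 2.4% of 10874 for PCB153, 0.0796% of 11313 for PCB101 and 0.00884% of 11313 for PCB52. Under PCB180, 20 transporters rose and 8 fell, where 4.59% of all genes tested rose and 2.67% fell. Under PCB153, 9 transporters rose and 5 fell, where 1.82% of all genes tested rose and 0.579% fell. Transporters made up 3.41% of the genes listed for PCB180 and 5.36% of those for PCB153. These 96 h comparisons share their control samples.

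**Figure D1:**
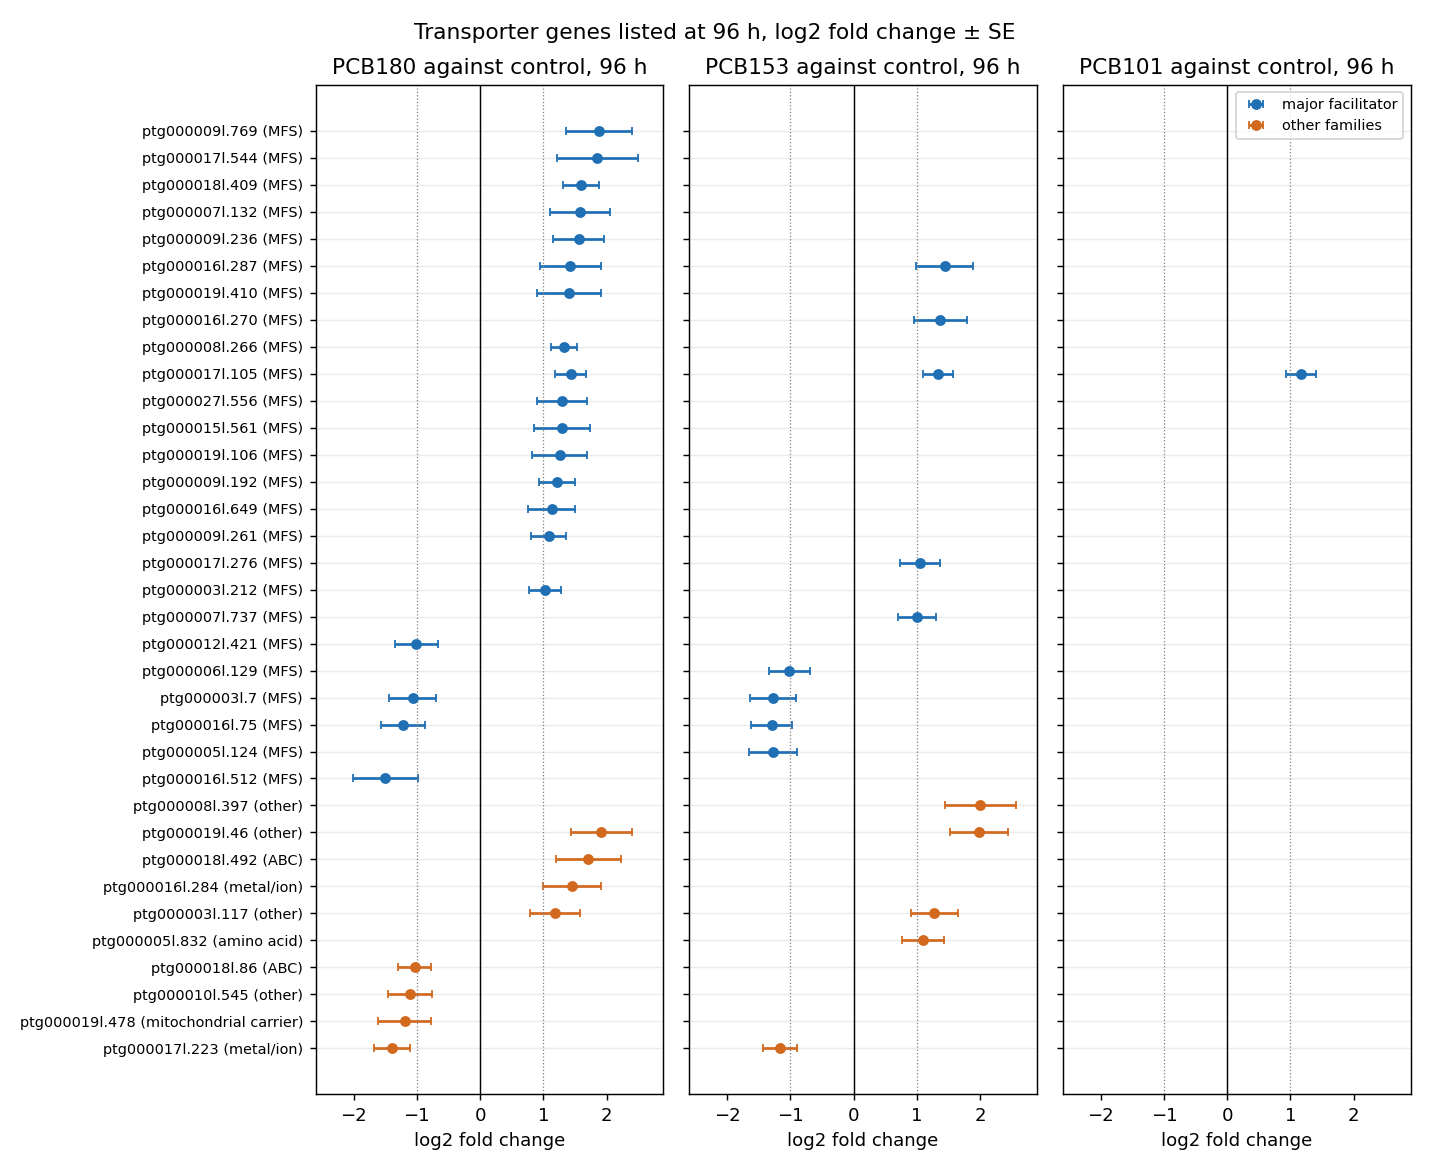
Log2 fold change with its SE (horizontal bar) for the 35 transporter genes listed at 96 h, with major facilitators above the other families and PCB180, PCB153 and PCB101 in panels from left to right. A gene without a point had no row in that comparison; dotted lines mark the authors' limit of 1, and the PCB180 points lie between -1.5 and 1.92.

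Major facilitators under PCB180 moved mostly upward, with 16 genes that rose and 4 that fell, a share of 80.0% rising. The share that rose was 63.2% over all 821 genes listed for PCB180 and 57.1% over the 620 annotated ones. The other transporter families split 4 to 4, or 5 to 8 with a wider list of words that adds exchangers, V-type ATPase subunits and an aquaporin. Under PCB153 the major facilitators split 5 to 4 (55.6% rising), the other transporter families 4 to 1, and all 261 listed genes 198 to 63 (75.9% rising). These shares describe the listed genes, and no test of the difference between families was made. Under PCB180 the major facilitators thus had a higher rising share than the other families and under PCB153 a lower one, on counts of 20 and 8 genes and of 9 and 5 genes.

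**Figure D2:**
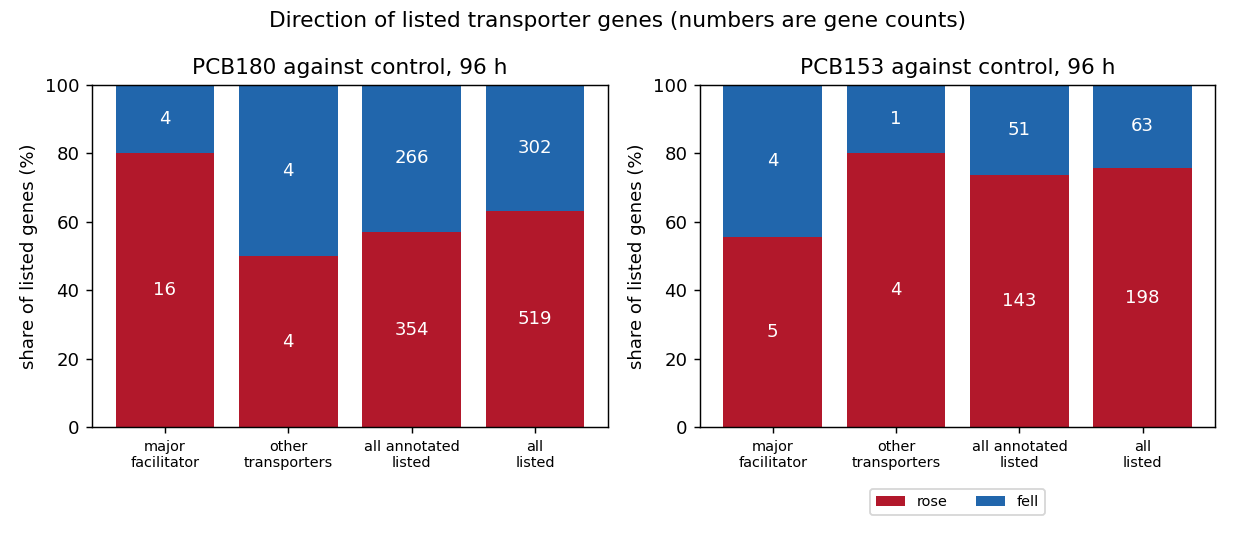
Share of listed genes that rose and fell at 96 h under PCB180 (left) and PCB153 (right), for major facilitators, the other transporter families, all annotated listed genes and all listed genes, with gene counts printed in the bars. Major facilitators were 16 of 20 rising under PCB180 and 5 of 9 under PCB153.

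The rises were moderate in size. The median log2 fold change of the rising major facilitators under PCB180 was 1.37, that of the rising genes of the other transporter families 1.58, and that of all 519 rising genes 1.59, from the authors' deposited table. For the falling genes under PCB180 the medians were -1.14 for major facilitators, -1.15 for the other families and -1.27 for all 302. Under PCB153 the rising medians were 1.33 for major facilitators, 1.63 for the other families and 1.68 for all 198, and the falling ones -1.27, -1.17 and -1.19 in the authors' deposited table. The rising other families include nitrogen permease regulator 3 (ptg000019l.46), which is not itself a transporter. Without it their rising median was 1.46 under PCB180 and 1.28 under PCB153, the latter below that of the major facilitators. A log2 fold change of 2 or more in either direction was reached by 0 of 28 transporters under PCB180, against 17.5% of all listed genes, and by 1 of 14 under PCB153, against 19.9%. Members are annotated by definition, and among all annotated listed genes these shares were lower, at 12.4% and 15.5%. The rising medians of the annotated genes were 1.52 under PCB180 and 1.62 under PCB153. The median SE was 0.39 for the transporters and 0.41 for all listed genes under PCB180.

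**Figure D3:**
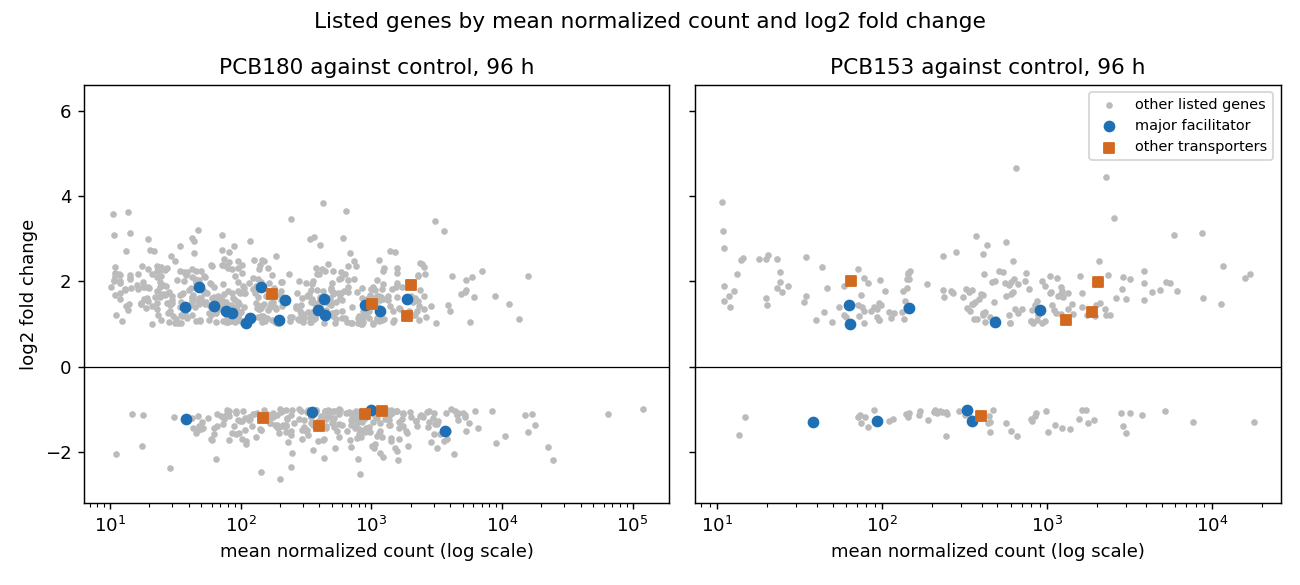
Log2 fold change against mean normalized count (log scale) for each gene listed at 96 h under PCB180 (left) and PCB153 (right), with major facilitators as circles, the other transporters as squares and the remaining listed genes in grey. Transporters lie inside the grey range and reach 1.92 under PCB180 and 2.0 under PCB153.

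The largest major facilitator rises under PCB180 were in ptg000009l.769, at a log2 fold change of 1.88 ± 0.52 (3.67-fold, adjusted p 0.00836), and ptg000017l.544, at 1.86 ± 0.64 (3.62-fold, adjusted p 0.0407), in the authors' deposited table. They ranked 155 and 165 of the 519 rising genes by fold change. The mean normalized count of ptg000009l.769 was 47.8, among the lower values of the members. The third, ptg000018l.409, rose by 1.59 ± 0.29 (adjusted p 1.23e-05) in the authors' deposited table. Its 95% interval, 1.02 to 2.16, was the only one among the 28 transporters of PCB180 that lay wholly beyond 1. Such an interval was found for 15.8% of all genes listed for PCB180 and 13.2% of the annotated ones. Next came ptg000007l.132 at 1.58 ± 0.48 and ptg000009l.236 at 1.56 ± 0.41 in the authors' deposited table. Below them stood ptg000017l.105 at 1.43 ± 0.25, ptg000016l.287 at 1.42 ± 0.48 and ptg000019l.410 at 1.41 ± 0.50, also from the authors' deposited table. The standard errors of neighbours in this order exceed the gaps between them, so the order within these 8 genes is not resolved.

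The remaining 8 major facilitators that rose under PCB180 had log2 fold changes of 1.03 to 1.32, by the authors' deposited table. They include the genes with a substrate in their annotation, named here for that annotation and not for their size. Quinate permease (ptg000008l.266), the type of protein that brings the plant acid quinate into Aspergillus and Neurospora cells, rose by a log2 fold change of 1.32 ± 0.21 in the authors' deposited table. Its adjusted p of 1.03e-07 was the smallest of the 28 transporters under PCB180. A 3-dehydroquinase of quinate catabolism (ptg000008l.233), named here after its values were seen, had log2 fold changes of 3.65 ± 0.83 under PCB180 and 4.66 ± 0.78 under PCB153 in the authors' deposited table. The permease had a row for PCB180 and none for PCB153, and it was not listed in the authors' own direct comparison of PCB180 with PCB153. The polyamine transport protein (ptg000009l.261), also annotated as an MFS general substrate transporter, rose by 1.08 ± 0.28 (adjusted p 0.00433) in the authors' deposited table. Polyamines are small amines that bind nucleic acids and are needed for growth.

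The major facilitators that fell under PCB180 were fewer than those that rose. The gene with the largest fall, ptg000016l.512, had a log2 fold change of -1.5 ± 0.52 (adjusted p 0.0397) and the highest mean normalized count of the members, 3699, in the authors' deposited table. The others were ptg000016l.75 at -1.22 ± 0.35, ptg000003l.7 at -1.07 ± 0.38 and ptg000012l.421 at -1.01 ± 0.34 in the authors' deposited table. Their adjusted p values of 0.0111, 0.0476 and 0.0392 all exceeded 0.01. Among the 16 that rose, 8 had an adjusted p under 0.01, near the 46.8% of all genes listed for PCB180.

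Under PCB153 the rising major facilitators were ptg000016l.287 at a log2 fold change of 1.44 ± 0.46, ptg000016l.270 at 1.37 ± 0.42 and ptg000017l.105 at 1.33 ± 0.23 in the authors' deposited table. Smaller rises were listed for ptg000017l.276, at 1.05 ± 0.32, and ptg000007l.737, at 1.0 ± 0.30, in the authors' deposited table. The last of these had the smallest rise of all 198 rising genes. Only ptg000017l.105, with an adjusted p of 1.45e-05, was under 0.01 among these 5 genes, where 37.5% of all genes listed for PCB153 were. The falling ones were ptg000016l.75 at -1.30 ± 0.32, ptg000003l.7 at -1.28 ± 0.36, ptg000005l.124 at -1.27 ± 0.38 and ptg000006l.129 at -1.01 ± 0.32 in the authors' deposited table. The first 3 of these differ by less than their standard errors.

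One major facilitator, ptg000017l.105, had rows for 3 congeners. Its log2 fold change was 1.43 ± 0.25 under PCB180 (adjusted p 2.52e-06), 1.33 ± 0.23 under PCB153 (adjusted p 1.45e-05) and 1.17 ± 0.23 under PCB101 (adjusted p 0.00121) in the authors' deposited table. In linear terms these rises were 2.70-fold, 2.52-fold and 2.25-fold, and it was the only transporter listed for PCB101. Its annotation names no substrate. Rows for several congeners were usual among the 9 genes listed for PCB101. All 9 also had a row for PCB153, and 7 of them had one for PCB180.

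ABC-type members went in both directions under PCB180. The ABC transporter domain protein ptg000018l.492 rose by a log2 fold change of 1.71 ± 0.52 (adjusted p 0.0176) and ptg000018l.86, with the same annotation, fell by 1.04 ± 0.26 (adjusted p 0.00318) in the authors' deposited table. A protein annotated as an ATP-dependent bile acid permease (ptg000010l.545), the name of an ABC transporter of the yeast vacuole but grouped under other in the plot of members, fell by 1.11 ± 0.35 (adjusted p 0.0231) in the authors' deposited table. None of these genes had a row for PCB153.

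Carriers of ions and metabolites included a gene that fell under both highly chlorinated congeners. The vacuolar calcium ion transporter ptg000017l.223, of a type that moves calcium from the cytosol into the vacuole in yeast, had a log2 fold change of -1.39 ± 0.29 under PCB180 and -1.17 ± 0.27 under PCB153 in the authors' deposited table. Its adjusted p was 0.000192 for PCB180 and 0.00334 for PCB153. The CorA-like transporter ptg000016l.284 rose by 1.46 ± 0.46 under PCB180 in the authors' deposited table. Its annotations name a magnesium transport protein and, as an alternative, the zinc transport protein ZntB. A mitochondrial carrier protein (ptg000019l.478), of a family that moves metabolites across the inner mitochondrial membrane, fell by 1.19 ± 0.42 under PCB180. An amino acid transporter (ptg000005l.832) rose by 1.10 ± 0.33 under PCB153 (adjusted p 0.0329) in the authors' deposited table.

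The largest log2 fold changes outside the major facilitators came from genes whose transport role is indirect or putative. ER transporter 6TM N-terminal domain proteins rose, with ptg000008l.397 at 2.0 ± 0.56 under PCB153 in the authors' deposited table. The other gene with this domain, ptg000003l.117, was at 1.19 ± 0.40 under PCB180 and 1.28 ± 0.38 under PCB153 in the authors' deposited table. Nitrogen permease regulator 3 (ptg000019l.46) had a log2 fold change of 1.92 ± 0.48 under PCB180 and 1.98 ± 0.46 under PCB153, with adjusted p values of 0.00326 and 0.00294, in the authors' deposited table. In yeast this protein is a subunit of a complex that restrains TORC1 signalling when amino acids are scarce, and it is not itself a transporter. Without it, 19 transporters rose under PCB180 and 8 under PCB153.

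Between PCB180 and PCB153, which differ by a further chlorine atom on PCB180, 7 transporters could be compared at the same dose and hour. These 7 had a row for each congener. They were 7 of the 14 transporters listed for PCB153, where 171 of all 261 listed genes (65.5%) also had a row for PCB180. Of the 28 transporters listed for PCB180 they were also 7, where 171 of all 821 listed genes (20.8%) had a row for PCB153. Whether transporters and all listed genes differ in this overlap was not tested. The differences in log2 fold change, PCB180 minus PCB153, lay between -0.23 for the calcium transporter ptg000017l.223 and 0.21 for ptg000003l.7. A two-sided normal test that takes a correlation of 0.5 between comparisons with a shared control gave no adjusted p under 0.05 in these or in the remaining comparisons below. For ptg000017l.223 the 95% interval of the difference was -0.78 to 0.32, and for ptg000003l.7 it was -0.52 to 0.93. The narrowest interval was that of ptg000017l.105, 0.10 with bounds of -0.37 and 0.57, and over all 7 genes the bounds reached from -0.99 to 0.93. Differences of nearly 1 on the log2 scale are therefore inside several of these intervals. For ptg000017l.105 the difference was 0.26 (-0.21 to 0.73) for PCB180 minus PCB101 and 0.16 (-0.29 to 0.62) for PCB153 minus PCB101. Over these 9 comparisons the smallest unadjusted p of the normal test was 0.272, and the smallest p after Benjamini-Hochberg adjustment over all 190 comparisons of genes with rows in both was 0.919. Over all 190, 0 had an adjusted p under 0.05 and 25 an unadjusted one. Genes enter this test only when past the authors' limits under both congeners, which leaves out any transporter listed for a single one. Being listed for a single congener does not show that the congeners differ. In the authors' own direct comparison of PCB180 with PCB153 at 96 h, 1 gene was listed, 0.00884% of those tested, and it was no transporter.

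**Figure D4:**
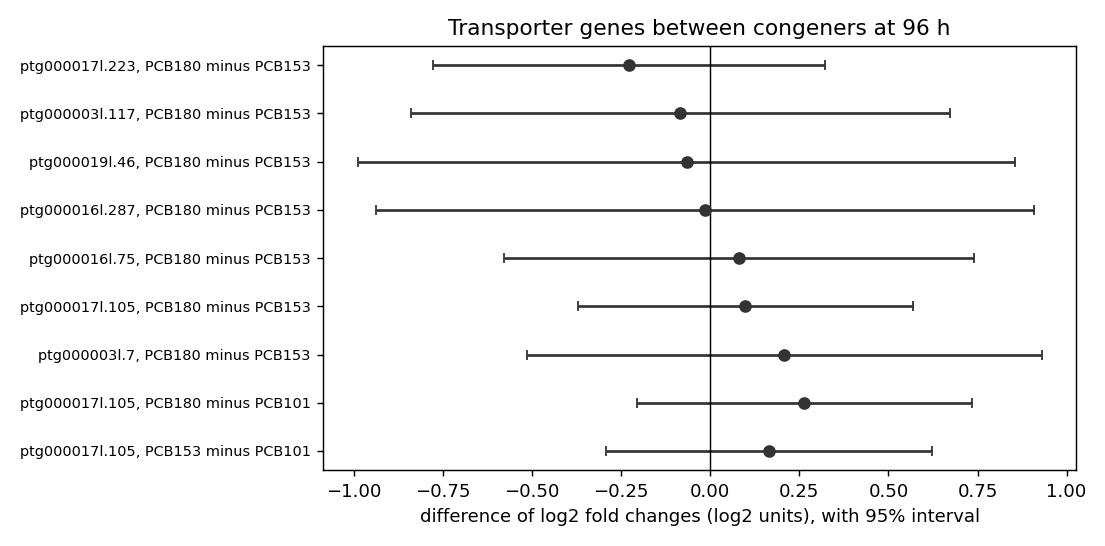
Difference of log2 fold changes between congeners at 96 h, with its 95% interval (horizontal bar), for each transporter gene with a row in both comparisons. All 9 intervals include 0.

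Other genes that act in transport across or between membranes were counted from a list of words such as channel, exchanger, aquaporin, V-type ATPase and SNARE, with nucleoporins left out. Of 7 such listed genes, 1 rose and 5 fell under PCB180, where 4.59% of all genes tested rose and 2.67% fell, and 1 rose under PCB153, where 1.82% rose. The number of such genes tested is not known. The 3 ion exchanger domain proteins that were listed fell under PCB180, with the sodium/calcium exchanger domain proteins ptg000003l.703 at -1.23 ± 0.33 and ptg000015l.320 at -1.03 ± 0.29 and the cation/H+ exchanger ptg000012l.207 at -1.21 ± 0.39 in the authors' deposited table. An aquaporin (ptg000002l.100), a water or solute channel, fell by 1.34 ± 0.36, and a t-SNARE protein (ptg000003l.605), which acts in vesicle fusion, fell by 1.09 ± 0.37 in the authors' deposited table. A single subunit of the V-type ATPase, the pump that acidifies the vacuole, was listed for each of these congeners. Subunit e (ptg000027l.49) was at 1.63 ± 0.57 under PCB180 and subunit F (ptg000017l.462) at 1.72 ± 0.45 under PCB153 in the authors' deposited table.

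Each gene identifier gives a contig and then a gene number, so genes with close numbers can be listed side by side. Within 3 gene numbers of a further listed gene stood 20 of the 36 transporters (55.6%), 15 of the 26 major facilitators, 5 of the 10 others, and 404 of all 920 listed genes (43.9%). On contig ptg000016l, the CorA-like gene ptg000016l.284, the major facilitator ptg000016l.287 and a TauD/TfdA-like protein (ptg000016l.288), a dioxygenase type, had log2 fold changes of 1.46 ± 0.46, 1.42 ± 0.48 and 1.66 ± 0.34 under PCB180 in the authors' deposited table. The major facilitator ptg000018l.409, described above, is numbered next to an ankyrin repeat protein (ptg000018l.408, 1.72 ± 0.40) and close to a RelA/SpoT domain protein (ptg000018l.407, 2.67 ± 0.61), both of which rose under PCB180 in the authors' deposited table. A gluconokinase (ptg000019l.109), which phosphorylates gluconate, at 1.95 ± 0.56, lies close to the major facilitator ptg000019l.106, at 1.26 ± 0.43, both under PCB180 in the authors' deposited table. Other annotated neighbours rose under PCB180 beside members that rose. They were an F-box protein (ptg000009l.260, 1.89 ± 0.42) beside the polyamine transport protein and a short-chain dehydrogenase (ptg000009l.233, 1.61 ± 0.56) near ptg000009l.236 in the authors' deposited table. Near ptg000009l.192 and ptg000027l.556, a radical SAM protein (ptg000009l.190, 2.50 ± 0.61) and a rhodopsin domain protein (ptg000027l.554, 1.57 ± 0.49) rose under PCB180 in the authors' deposited table. Counting each pair once per comparison in which both genes were listed, 19 of 26 pairs with a transporter moved the same way and 7 opposite ways, which is 73.1% in the same direction, and among all listed pairs this share was 69.9% of 239. Next to ptg000006l.129, which fell under PCB153, a pisatin demethylase (ptg000006l.130), the name of a fungal P450 that detoxifies a pea compound, had a log2 fold change of 1.39 ± 0.27 under PCB180 and 1.16 ± 0.25 under PCB153 in the authors' deposited table. On either side of ptg000019l.410, which rose under PCB180, the genes ptg000019l.409 (-1.07 ± 0.33) and ptg000019l.412 (-1.36 ± 0.33) fell in the authors' deposited table. Near the falling major facilitators ptg000012l.421 and ptg000016l.512, a sorting nexin (ptg000012l.419, 1.40 ± 0.48) and an exo-1,3-beta-glucanase (ptg000016l.509, 1.16 ± 0.40) rose under PCB180 in the authors' deposited table. The 12 neighbours without annotation rose in each of their 17 rows, with log2 fold changes of 1.04 to 3.05 in the authors' deposited table. Under PCB180, 519 of all 821 listed genes rose, and 354 of the 620 annotated ones. Under PCB153, 198 of all 261 rose, and 143 of the 194 annotated ones. Listed genes without annotation thus rose more often than annotated ones in each of these comparisons.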

How the data were processed

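Polyadenylated RNA of 50 mycelial samples (10 groups of 5) was extracted with TRIzol, per the labels' protocols. No source used here names the aligner, counter, genome build or test program, which are thus not given. The authors deposited tables of comparisons. Their columns are a log2 fold change with its standard error in log2 units, a score (fold change divided by its error, as checked), unadjusted and adjusted p-values, and a signal, the mean normalized count over samples, per the file headers. Annotations came from the shorter deposited table and values from the longer one.

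The number of genes tested was recovered as the whole number that, multiplied by each unadjusted p and divided by its adjusted p, gave a whole rank for the most rows (tolerance 0.0001). Differences between congeners were computed with a two-sided normal test (correlation 0.5), with Benjamini-Hochberg adjustment over all genes in both lists. Intervals are normal 95% intervals. The recovery of the number of genes and the test of differences were run on simulated data. The simulated differences had the same correlation of 0.5 and no listing limits. They therefore cannot check the assumed correlation or the effect of those limits. Python 3.11.15, pandas 2.3.3 and scipy 1.17.1 were used.

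The members, word lists and tests were chosen with earlier results of these data known. Genes named are the members in more than 1 comparison, the 8 largest rises and falls of major facilitators per comparison, all members of other families, and annotated listed genes within 3 gene numbers, with unannotated neighbours given by their range. Exceptions are marked as such. In the word list of related genes, nucleoporins were left out after the annotations were seen. No sequences were used. Alternatives were stricter limits on p and fold, a filter on low counts, other word lists, a class by the first annotation, other correlations and adjustment within pairs.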

Additional observations from a re-analysis of the deposited data

How the results depend on the processing

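Counts are given as PCB180 rose, PCB180 fell, PCB153 rose and PCB153 fell at 96 h. With an adjusted p under 0.01 they were 9, 2, 2 and 2 for all transporters, 8, 0, 1 and 1 for major facilitators, and 1, 2, 1 and 1 for the other families. With an adjusted p under 0.001 they were 3, 1, 1 and 0 for all transporters, 3, 0, 1 and 0 for major facilitators, and 0, 1, 0 and 0 for the other families. With a log2 fold change of 2 or more in either direction they were 0, 0, 1 and 0 for all transporters, 0 in each for major facilitators, and 0, 0, 1 and 0 for the other families. With a 95% interval wholly beyond 1, chosen after the values were seen, they were 1, 0, 1 and 0 for all transporters, 1, 0, 0 and 0 for major facilitators, and 0, 0, 1 and 0 for the other families. In the counts at 0.01 and those by interval, every rise of the other families was that of nitrogen permease regulator 3 (ptg000019l.46). This protein is not itself a transporter. Of all listed genes, 384 of 821 for PCB180 and 98 of 261 for PCB153 had an adjusted p under 0.01. Under 0.001 these numbers were 130 and 40. The single PCB101 gene was lost (0 left) under the last 3 of these limits, and the single PCB52 gene at 24 h passed all 4. These limits only remove genes. Leaving out the lowest 25% by mean normalized count (77.5 or less) left 3 of the 5 major facilitators that rose under PCB153. A wider list of words raised the falling genes of other families under PCB180 from 4 to 8, and adding transport proteins and transporting ATPases after the annotations were seen raised those under PCB153 from 1 to 2. No other count moved by over 1.5 times under these changes of filter or words, without the permease regulator or with the class by first annotation. The differences between congeners gave 0 adjusted p under 0.05 with a correlation of 0 or 0.75 and within pairs, with adjusted p from 0.381 to 0.998. No replicate could be left out, since no values per sample were used. No paired analysis was possible because the tables hold comparisons and no values per replicate.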

Other observations

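Further genes annotated for transport fall outside the words that chose the members, and are named here after their values were seen. A potassium transport protein (ptg000021l.601), of a type that takes up potassium in fungi, had a log2 fold change of -1.22 ± 0.27 under PCB180 and -1.02 ± 0.26 under PCB153, with adjusted p values of 0.000628 and 0.00725, in the authors' deposited table. A phospholipid-transporting ATPase (ptg000009l.567), of a family that moves lipids between the leaflets of a membrane, fell by 1.5 ± 0.43 on the log2 scale under PCB180 in the authors' deposited table. A sulphur transport domain protein (ptg000012l.279) rose by 2.12 ± 0.57 under PCB180, more than any of the 28 transporters listed for that congener, in the authors' deposited table.

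Contig ptg000016l held 6 of the 36 transporters among its 48 listed genes, which is 12.5%, where transporters were 3.91% of all 920 listed genes. These 6 are ptg000016l.75, ptg000016l.270, ptg000016l.284, ptg000016l.287, ptg000016l.512 and ptg000016l.649, and they include genes that rose and genes that fell. On the other contigs this share lay between 0 and 8.0%, the latter on ptg000019l with 4 of 50 listed genes. It was picked as the highest share after the values were seen and was not tested. The number of transporter genes tested on each contig is not known.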
